A study of Rattus norvegicus with 4 samples.

Results

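The smooth muscle contractile programme is represented here by 10 genes chosen by name: Tagln, Cnn1, Cnn2, Cald1, Myh11, Myl9, Smtn, Lmod1, Myocd and Srf. All 10 were found among the 33778 genes of the deposited tables. Their RNA was measured by sequencing in H9C2, a clonal line made from the heart of a rat embryo, which resembles skeletal myoblasts in many ways and which the labels call cardiac myocytes. There were 2 libraries of untreated control cells and 2 of cells given PAGln at 100 µM for 48 h. PAGln is phenylacetylglutamine, a conjugate of glutamine with phenylacetate, which gut bacteria produce. All 4 libraries come from the same line in the same serum-supplemented medium, with no genetic change stated. The comparison asks which transcripts differ in abundance after the treatment.

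In smooth muscle, calcium activates a kinase that phosphorylates the myosin regulatory light chain, and myosin then slides actin filaments. Caldesmon and the calponins sit on the thin filament and restrain this sliding, and transgelin and smoothelin bind and order the actin filaments. The genes of these proteins are read together because serum response factor (SRF), a DNA-binding protein, occupies a motif called the CArG box near many of them, and myocardin, which does not bind DNA by itself, activates transcription through SRF. Cells of early heart and some cultured myoblasts and fibroblasts also use parts of this programme.

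The gene of SRF is itself known as an SRF target, and its promoter shows what the motif looks like. The CArG box is a run of A and T bases between CC and GG, and it reads as the same motif on both strands. Of the 10 genes, 5 had a promoter window in the RefSeq tables (build GRCr8, 250 bases before to 50 after the start of a transcript). These were Srf, Cnn2, Cnn1, Smtn and Cald1, the last with windows at more than 1 start. CArG boxes were found in the windows of Srf and Cnn2, which are printed here 5′ to 3′ with the boxes in capitals. The Srf window lies at chr9:21923826-21924125 on the + strand and the Cnn2 window at chr7:10370263-10370562 on the - strand.
Srf: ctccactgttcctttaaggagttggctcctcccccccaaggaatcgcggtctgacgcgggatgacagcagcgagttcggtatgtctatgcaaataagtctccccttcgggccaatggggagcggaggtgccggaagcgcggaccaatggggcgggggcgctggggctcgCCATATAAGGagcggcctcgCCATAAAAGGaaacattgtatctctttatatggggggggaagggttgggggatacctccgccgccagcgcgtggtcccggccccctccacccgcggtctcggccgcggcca
Cnn2: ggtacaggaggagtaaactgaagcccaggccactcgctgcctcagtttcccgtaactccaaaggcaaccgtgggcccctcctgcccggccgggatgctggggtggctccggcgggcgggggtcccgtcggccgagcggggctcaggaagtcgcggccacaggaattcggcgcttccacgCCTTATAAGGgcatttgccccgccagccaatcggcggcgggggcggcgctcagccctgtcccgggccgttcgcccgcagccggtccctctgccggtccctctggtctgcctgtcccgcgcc
The boxes of Srf begin 81 and 61 bases before the start, and that of Cnn2 begins 71 bases before it. Of all 33469 such windows, 1.64% held a CArG box and 0.0209% held 2 or more. The windows of Cnn1, Smtn and Cald1 held none, which says only that the letters are not in those stretches. Allowing 1 G or C among the inner bases, 9.42% of all windows held a match. The window of smooth muscle actin, Acta2, then held CCCTATATGG, beginning 134 bases before the start, and CCTTGTTTGG, beginning 84 bases before it, on the - strand of chromosome 1. A match is a description of the sequence and not a measured binding site.

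The values are FPKM (reads scaled by gene length and by the reads of the library), which allows levels to be compared between genes. They correspond to 13507110 to 14984712 reads per library. A gene was tested when its mean over the 4 libraries was 1 FPKM or more, which 12334 genes and all 10 contractile genes reached. Markers of the labelled cell type were mostly near 0, as 11 of 15 cardiomyocyte markers lay under the filter. Among these were Actc1 (mean 0.011 FPKM), Myh6 (0.16 FPKM) and Actn2 (0.053 FPKM). Cardiac troponin T, Tnnt2, had 157 FPKM, and the others that reached the filter were Nkx2-5 (13.9 FPKM), Gata4 (4.29 FPKM) and Pln (2.47 FPKM). Of 19 smooth muscle and pericyte markers 14 reached the filter and 5 did not. The 19 include the contractile genes Myh11, Smtn, Lmod1, Cnn1 and Myocd. Of the rest, Actg2 had 437 FPKM, Mcam 94.0 FPKM and Itga8 46.5 FPKM. Among those under the filter, Rgs5 was at 0 in all libraries and Kcnmb1, a subunit of a smooth muscle potassium channel, had 0.0079 FPKM. All 10 contractile genes were thus detected in cells that had most of these markers and lacked some. In these bulk samples fewer cells of a type and less RNA per cell cannot be told apart.

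The 10 genes spanned levels from 994 FPKM for Tagln to 2.58 FPKM for Myh11, as means over the 4 libraries. In the order of mean level, Tagln was followed by Myl9 (619 FPKM), Cald1 (416 FPKM) and Cnn2 (314 FPKM), and the ranges of these 4 genes over the libraries did not overlap. Cnn1 (88.5 FPKM) and Smtn (73.2 FPKM) came next, and their ranges overlapped. Srf (36.1 FPKM) and Lmod1 (32.7 FPKM) also overlapped with each other. Myocd (15.2 FPKM) and Myh11 lay below all of these, and their ranges were separate. Tagln ranked 36th among the 12334 tested genes and Myl9 72nd, whereas Myh11 ranked 10614th. Together the 10 genes made up 0.533% and 0.545% of all FPKM in control 1 and 2, and 0.612% and 0.481% in PAGln 1 and 2. Thus their summed level was highest and lowest in the libraries of the same treated group.

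**Figure D1:**
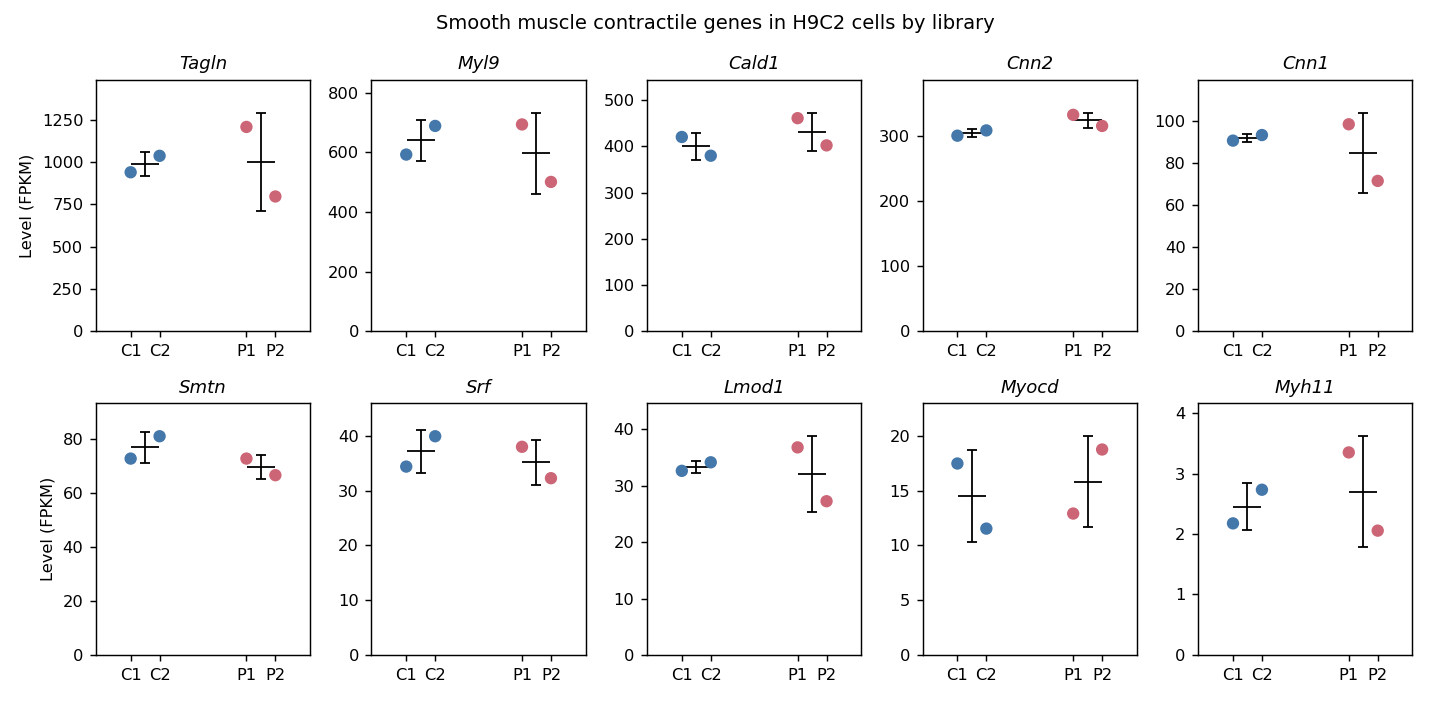
Level of each of the 10 genes in FPKM (vertical axes, each from 0) in control 1 and 2 (C1, C2, blue) and PAGln 1 and 2 (P1, P2, red), with the mean (bar) and SD (whiskers) of each group of 2. The treated libraries of Tagln lie at 1207 and 796 FPKM, on either side of both controls. Cnn2 is the gene whose treated libraries both lie above the controls, by an amount not beyond counting error.

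No contractile gene passed the test for a difference between PAGln and control cells. Of the 12334 genes tested with limma, 0 (0%) passed at an adjusted p under 0.05, and 262 (2.12%) had one under 0.05 before adjustment. None of the 10 genes was among either, and each had an adjusted p of 0.9995. The log2 fold changes of PAGln over control, taken on log2(FPKM + 1), ran from -0.14 for Smtn to 0.12 for Myocd, with 6 of 10 below 0 against 49.4% of all tested genes. Their median was -0.041, beside 0.0021 over all tested genes. The 95% confidence intervals of these log2 fold changes reached a median of 0.42 to either side. The narrowest was -0.18 to 0.35 for Cnn2 and the widest -0.53 to 0.78 for Myocd, so changes within such widths could not be resolved. The intervals are not adjusted over the 12334 genes, so larger changes could also fail the test. Whether the 2 libraries of a group are separate cultures is not stated in the labels, so the p-values measure only a spread between libraries that may be technical. Fold changes on this scale understate the change of genes with low values, such as Myh11.

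Among the actin-binding proteins, transgelin had the highest level of all 10 genes. Its gene, Tagln (chromosome 8, 50222896 to 50231357) had 939 and 1036 FPKM in control 1 and 2, then 1207 and 796 FPKM in PAGln 1 and 2. The treated libraries were thus the highest and the lowest, and both controls lay between them. The group means were 987 ± 68.7 FPKM for control and 1001 ± 290.4 FPKM with PAGln (SD, n = 2 each), with a log2 fold change of -0.0092 (SE 0.23). This direction turned without control 2 (0.062) and without PAGln 2 (0.29), and with values rescaled to a common total (0.010). Cald1, caldesmon (chromosome 4, 62220736 to 62291489) had 420, 380, 461 and 402 FPKM in the same order of libraries. Its groups overlapped, because control 1 lay above PAGln 2. Its log2 fold change was 0.11 (SE 0.13) and it was 0.0094 to 0.21 with 1 library left out, the lowest without PAGln 1.

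The calponins, which inhibit the myosin ATPase on actin, differed in how they varied. Cnn1, the form used as a marker of differentiated smooth muscle (chromosome 8, 23113048 to 23121761) had 90.7 and 93.3 FPKM in control 1 and 2, then 98.5 and 71.5 FPKM in PAGln 1 and 2. PAGln 2 stood apart from the other libraries, and PAGln 1 was the highest. Cnn2, the more widely expressed form (chromosome 7, 12782491 to 12787750) had 301, 309, 333 and 315 FPKM. Both treated libraries lay above both controls, by little. The log2 fold changes were -0.13 (SE 0.17) for Cnn1, which was 0.097 without PAGln 2, and 0.089 (SE 0.10) for Cnn2. The level of Cnn2 was 3.31 times that of Cnn1 in both control libraries, 3.38 times in PAGln 1 and 4.41 times in PAGln 2.

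Smtn, smoothelin (chromosome 14, 83755142 to 83776863) had 72.7 and 80.98 FPKM in control 1 and 2, then 72.7 and 66.6 FPKM in PAGln 1 and 2. Control 1 lay above PAGln 1 only at the level of 72.7047 against 72.7032 FPKM, so the separation of its groups is slight. Its log2 fold change was -0.14 (SE 0.11), and it stayed below 0 with each library left out in turn (-0.22 to -0.063, the latter without control 2). Lmod1, leiomodin 1, which nucleates actin filaments (chromosome 13, 52147555 to 52190228) had 32.7, 34.2, 36.8 and 27.3 FPKM. As for Cnn1, PAGln 1 was the highest and PAGln 2 the lowest. Its log2 fold change was -0.074 (SE 0.16), and 0.14 without PAGln 2. The ratio of Lmod1 to Cnn1 was nearly the same in every library, from 0.360 to 0.381. It was the steadiest of the ratios formed, and that of Tagln to Cnn1 ran from 10.35 to 12.25. Over 4 libraries such steadiness is only a description. Thus Cnn2 and Smtn were the 2 of 10 genes whose groups did not overlap, in opposite directions, beside 23.1% of all tested genes.

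The myosin genes were very unequal in level. Myl9, the regulatory light chain that the kinase phosphorylates (chromosome 3, 152857592 to 152863960) had 593 and 689 FPKM in control 1 and 2, then 694 and 501 FPKM in PAGln 1 and 2. Control 2 and PAGln 1 were alike and PAGln 2 was the lowest, so the groups overlapped. Its log2 fold change was -0.12 (SE 0.19), and 0.12 without PAGln 2. Myh11, the smooth muscle myosin heavy chain and the most specific marker of the programme (chromosome 10, 764421 to 859184) had 2.18, 2.73, 3.35 and 2.06 FPKM, from 217, 276, 304 and 188 reads. The exact Poisson 95% interval, which covers counting error only, was 2.99 to 3.75 FPKM in PAGln 1 and 1.77 to 2.37 FPKM in PAGln 2. The difference within the treated pair was therefore larger than counting error. The log2 fold change of Myh11 was 0.083 (SE 0.25), and it was -0.034 without control 1 and -0.17 without PAGln 1. Among the paralogues, the non-muscle heavy chain Myh10 had a mean of 46.2 FPKM and Myh9 3.55 FPKM.

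The regulators did not follow each other. Srf (chromosome 9, 16737642 to 16747225) had 34.4 and 39.9 FPKM in control 1 and 2, then 38.0 and 32.3 FPKM in PAGln 1 and 2, so control 2 and PAGln 1 were its higher libraries, as for Tagln and Myl9. Myocd, myocardin (chromosome 10, 51683540 to 51778986) had 17.5, 11.5, 12.9 and 18.7 FPKM, from 1324, 885, 890 and 1303 reads. Its high libraries were control 1 and PAGln 2. Over all tested genes, 35.6% were higher in control 2 than in control 1 and in PAGln 1 than in PAGln 2. The opposite in both pairs held for 34.3%. In PAGln 2 the contractile genes other than Myocd and Cnn2 were below their own means. The log2 fold changes were -0.079 (SE 0.14) for Srf and 0.12 (SE 0.26) for Myocd. The direction of both turned without control 2 (Srf 0.026, Myocd -0.16) and without PAGln 2 (Srf 0.035, Myocd -0.13). The level of Myocd was 0.508 and 0.289 times that of Srf in control 1 and 2, and 0.340 and 0.581 times in PAGln 1 and 2.

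**Figure D2:**
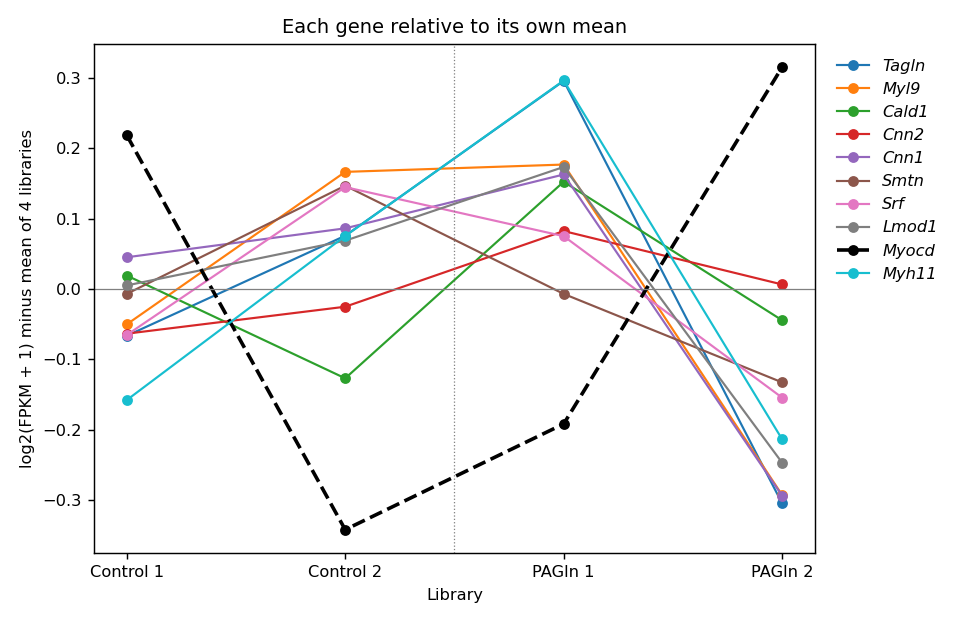
Level of each of the 10 genes relative to its own mean over the 4 libraries, on the log2(FPKM + 1) scale (vertical axis), by library (horizontal axis). Lines only join the points of a gene. Tagln, Myl9 and Cnn1 reach 0.30, 0.18 and 0.16 in PAGln 1 and -0.30, -0.29 and -0.29 in PAGln 2, while Myocd (black, broken line) stands at -0.19 and 0.31.

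The treated libraries stood further apart than the group means for most of the genes, as for most of all tested genes. For 8 of the 10 genes the gap between PAGln 1 and PAGln 2 exceeded the difference between the group means on the log2 scale. It did so for 69.9% of all tested genes. This sets single libraries against means of 2, which vary less, so the gap can be the larger without any particular feature of these genes. The median gap within the treated pair was 0.44 for the contractile genes and 0.18 over all tested genes, and within the control pair it was 0.15 and 0.18. Every gene but Myocd was higher in PAGln 1 than in PAGln 2. The ratio of PAGln 1 to PAGln 2 in FPKM was 1.52 for Tagln, 1.38 for Cnn1, 1.63 for Myh11 and 0.688 for Myocd. PAGln 1 was the highest library for 7 of 10 genes (21.5% of all tested genes), PAGln 2 was the lowest for 7 of 10 (29.6%), and both held for 5 of 10 (9.08%). These 5 were Tagln, Myl9, Cnn1, Lmod1 and Myh11. The genes were chosen with earlier results of these data known, so these counts are a description of the libraries.

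A similar contrast between libraries followed gene length over all tested genes. Among the shortest 3084 genes (up to 1313 bases) the median level relative to each gene's mean was -0.050 and 0.076 in control 1 and 2, and 0.047 and -0.063 in PAGln 1 and 2, on the log2 scale. Among the longest 3081 genes (from 3461 bases) it was 0.053, -0.081, -0.037 and 0.069. Tagln (1254 bases), Myl9 (1104 bases) and Cnn2 (723 bases) are among the shortest and Myocd (5090 bases) among the longest. Lmod1 (4501 bases), Cald1 (4465 bases), Srf (4104 bases) and Myh11 (6693 bases) are also among the longest. Yet they were below their means in PAGln 2 and above them in PAGln 1, against the median of those genes. Cnn2 was at 0.0064 in PAGln 2, where the median of the shortest genes was -0.063. The part of gene length in the pattern was not tested.

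Marker genes of other cell types also varied with the libraries. Of 12 skeletal myoblast markers 6 reached the filter, and Myf5 and Pax7 were at 0. The highest means were those of Itga7 (188 FPKM), Cdh15 (91.2 FPKM), Musk (45.4 FPKM) and Myod1 (40.5 FPKM). The 12 markers summed to 343 to 396 FPKM for control and 342 to 406 FPKM with PAGln. The higher sums were in control 2 and PAGln 1. For 15 cardiomyocyte markers, of which 4 reached the filter and Myl3 was at 0, the sum was 146 to 196 and 165 to 211 FPKM, again highest in PAGln 1. Most of it was Tnnt2 alone, with 127 and 171 FPKM for control and 185 and 146 FPKM with PAGln. Of 11 fibroblast markers 6 reached the filter, and Dcn, Lum and Fap were at 0. Col1a1 (mean 2977 FPKM), Col3a1 (773 FPKM) and Thy1 (348 FPKM) were high. The 11 markers summed to 4735 to 5011 and 4660 to 5098 FPKM, with the highest sum in PAGln 2. The place of PAGln 2 as highest rested on the collagen gene Col1a2 (393 and 441 FPKM for control, 413 and 831 FPKM with PAGln). Without it the sums were 4342 and 4570 for control and 4247 and 4266 FPKM with PAGln. The 19 smooth muscle and pericyte markers, which include Myh11, Smtn, Lmod1, Cnn1 and Myocd, summed to 919 to 963 and 776 to 1008 FPKM. Of 8 endothelial and leukocyte markers 1 reached the filter, Cdh5 and Adgre1 were at 0, and the sum was 3.03 to 3.04 FPKM for control and 2.29 to 3.18 FPKM with PAGln. The part of the cell type markers in the differences between libraries was not tested.

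**Figure D3:**
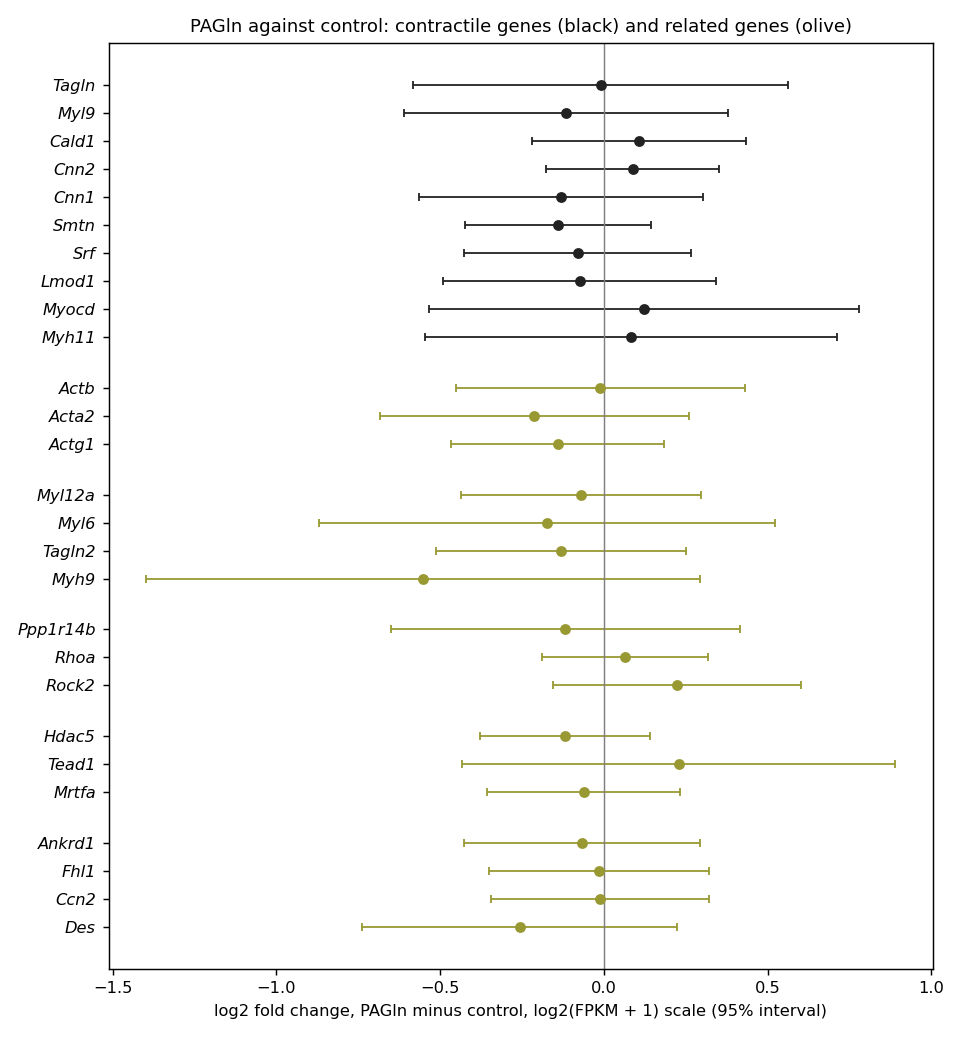
log2 fold change of PAGln against control on the log2(FPKM + 1) scale (horizontal axis) with its 95% confidence interval from limma, for the 10 contractile genes (black) and the named related genes (olive). Every interval spans 0, and the contractile genes lie between -0.14 and 0.12.

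Related genes of the pathway were read from 5 lists with 73 tested genes in all. Of these, 0 passed and 0 had an unadjusted limma p under 0.05, beside 0% and 2.12% of all tested genes. Their median log2 fold change was -0.017, with 30 higher and 43 lower, beside 49.4% lower over all tested genes. Among 13 actin and tropomyosin partners 3 were higher and 10 lower. In PAGln 2, 10 of the 13 were lowest, beside 29.6% of all tested genes. Smooth muscle actin, Acta2, had 4147 and 4077 FPKM for control and 3986 and 3161 FPKM with PAGln, and cytoplasmic gamma actin, Actg1, had 1129 and 1200 against 1095 and 1016 FPKM. Both treated libraries lay below both controls for these 2 of the 13 genes, beside 11.6% of all tested genes. Their log2 fold changes were -0.21 (SE 0.19) and -0.14 (SE 0.13). The cytoplasmic beta actin, Actb, had 5858 and 6122 against 6194 and 5707 FPKM.

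Paralogues of the contractile genes had 6 of 10 tested members higher and 4 lower. The light chain Myl12a (680 and 747 FPKM for control, 743 and 620 FPKM with PAGln) and the essential light chain Myl6 (451 and 640, then 594 and 382 FPKM) were the most abundant. Tagln2, the widely expressed transgelin, had 286 and 345 against 311 and 264 FPKM. The smallest unadjusted p of this list was for Myh9, with 3.79 and 4.85 against 3.91 and 1.65 FPKM and a log2 fold change of -0.55 (SE 0.33). Its low value was in PAGln 2 only, and its groups overlapped. Lmod2 and Tagln3 were at 0 in all libraries. In contrast, Lmod3 had a mean of 59.4 FPKM and Cnn3 of 153 FPKM, above Lmod1 (32.7 FPKM) and Cnn1 (88.5 FPKM).

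Of the genes that control light chain phosphorylation, 7 of 12 tested members were higher and 5 lower. The smooth muscle light chain kinase gene, Mylk, had a mean of 1.49 FPKM, far below its substrate Myl9. Ppp1r14b, an inhibitor of protein phosphatase 1, had 537 and 723 FPKM for control and 656 and 503 FPKM with PAGln, and the GTPase Rhoa had 215 and 225 against 231 and 230 FPKM. The kinase Rock2 had the smallest p of the list, with 57.2 and 44.4 against 56.9 and 61.1 FPKM and a log2 fold change of 0.22 (SE 0.15).

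SRF cofactors and modulators were split evenly, with 7 of 14 higher and 7 lower. Mrtfa, an actin-responsive partner of SRF, had 43.1 and 37.7 FPKM for control and 37.3 and 39.9 FPKM with PAGln. Tead1, a partner of YAP that acts on many muscle genes, had 51.4 and 33.7 against 41.0 and 58.4 FPKM. As for Myocd, control 1 and PAGln 2 were the high libraries. Each was above the other library of its group in 34.3% of all tested genes. The histone deacetylase Hdac5 had 57.2 and 61.0 against 56.1 and 52.7 FPKM, with a log2 fold change of -0.12 (SE 0.10). Mrtfa was 2.13 to 3.27 times as abundant as Myocd in these libraries.

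Among other SRF and MRTF targets 7 of 24 tested genes were higher and 17 lower. In PAGln 2, 13 of the 24 were lowest, beside 29.6% of all tested genes. The ankyrin repeat gene Ankrd1 had 1146 and 1192 FPKM for control and 1208 and 1031 FPKM with PAGln, and the LIM protein Fhl1 had 856 and 795 against 871 and 767 FPKM. The matricellular gene Ccn2 had 468 and 482 against 513 and 433 FPKM. These 3 had PAGln 1 as the highest and PAGln 2 as the lowest library, as Tagln did. Des, desmin, an intermediate filament of muscle, had the smallest p of the list, with 4.81 and 5.70 against 4.88 and 3.63 FPKM and a log2 fold change of -0.26 (SE 0.19).

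**Figure D4:**
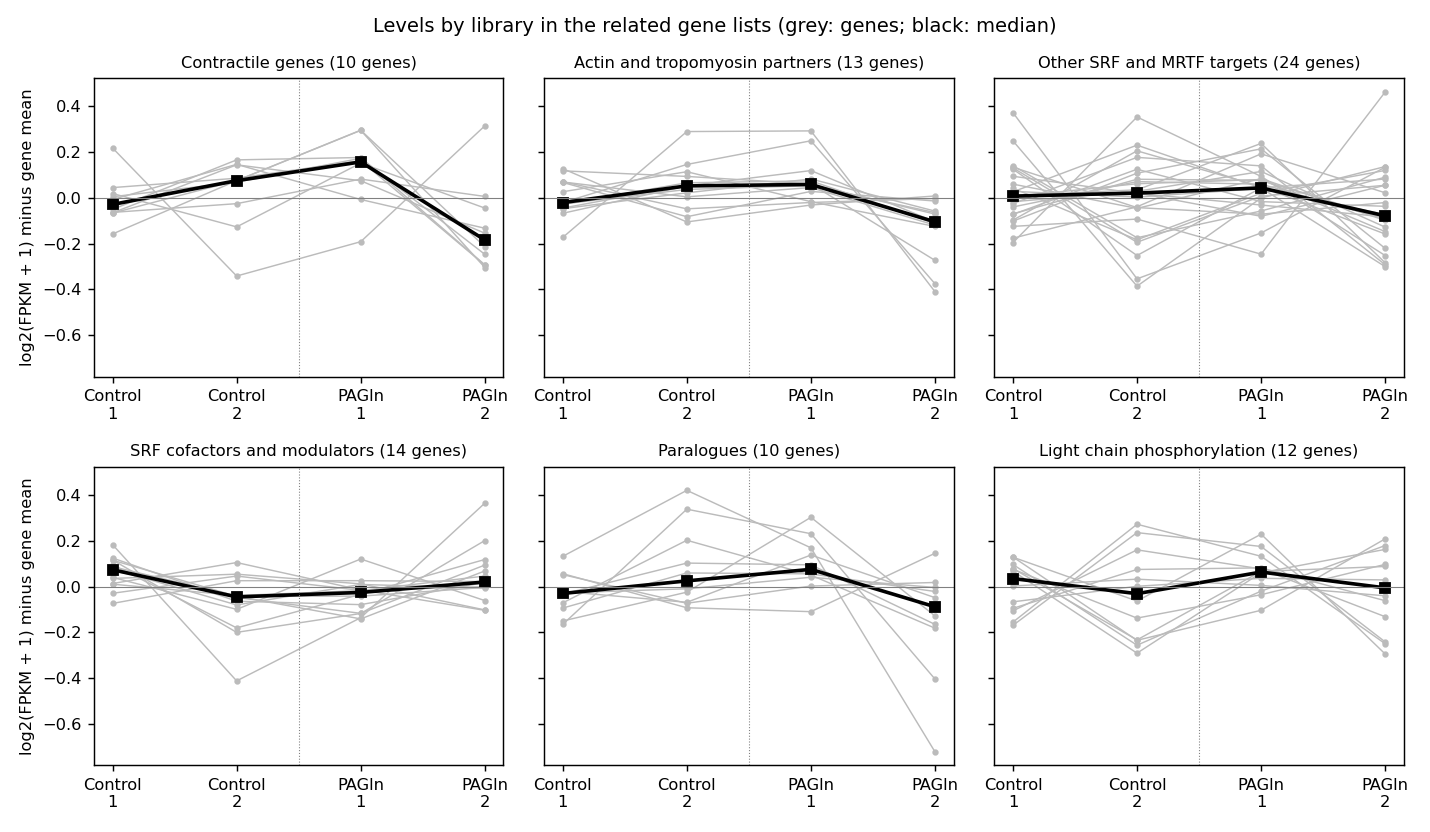
Level of each tested gene relative to its own mean on the log2(FPKM + 1) scale (vertical axes) by library (horizontal axes), for the contractile genes and 5 related lists (grey lines, genes; black, median). The median of the contractile genes is 0.16 in PAGln 1 and -0.18 in PAGln 2, that of the actin and tropomyosin partners 0.059 and -0.10, and that of the SRF cofactors -0.026 and 0.020.

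Myocd had the widest range of the 10 genes over the libraries, 0.66 on the log2(FPKM + 1) scale. The 3 tested genes whose 4 centred values came closest to its own, by root mean square difference over the 4 libraries, were Stard4 (0.012), Rif1 (0.015) and Cpd (0.017). Stard4, a sterol carrier, had 8.53, 5.50, 6.06 and 9.22 FPKM, and Cpd, carboxypeptidase D, had 77.0, 50.8, 56.3 and 79.9 FPKM in control 1, control 2, PAGln 1 and PAGln 2. Rif1, a regulator of replication timing, had 7.07, 4.55, 5.00 and 7.56 FPKM. With 12334 genes and 4 libraries such likeness is a description.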

How the data were processed

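RNA of 4 H9C2 libraries was taken up in Trizol and made into libraries with an Illumina TruSeq kit, per the labels' protocols. Groups follow the treatment label. The labels give differing numbers of repeats, and 2 libraries a group were used. The authors deposited FPKM for each gene in a table for each library. Bowtie 0.12.2 and hg38, a human build, are named in the submitters' processing notes, although the tables hold 32883 rat Ensembl identifiers. The build of the coordinates, printed as deposited, the counting tool, its use of strand and its handling of multi-mapped reads are items not given in the sources used here, so reads shared between near-identical or overlapping genes cannot be told apart.

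FPKM times gene length gave whole multiples of 1 step per library for all non-zero values (100%, within 0.01 of a read), and the smallest step was taken as 1 read. Reads per library ranged from 13507110 to 14984712. Genes whose mean reached 1 FPKM were tested on log2(FPKM + 1) with limma 3.58.1 (R 4.3.3), using eBayes, a variance trend and no covariates, two-sided, with Benjamini-Hochberg adjustment and a threshold of 0.05. The recovered reads of the control pair (18.6 chi-square units per gene) and of the PAGln pair (16.7) differed beyond sampling noise. Each library was taken as 1 replicate, although this spread may be technical.

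The members and lists were chosen with earlier results of these data known. Of 161 list entries, 157 matched a gene name, and the other 4 were not analysed here. All 10 members were named, with, from each related list, the 3 genes of highest mean FPKM and the tested gene with the smallest unadjusted p. The 3 genes most like the widest-ranging member were also named. A gene that these rules name is not reported here. Myh10, Mylk, Lmod2, Lmod3, Tagln3, Cnn3 and the cell type markers given with values were chosen after their values were seen. Promoter sequences are from RefSeq (GRCr8) and were matched by symbol. Alternatives were a pseudocount of 0.1, no filter, a filter of 5 FPKM, rescaling to a common total, quantile normalization, voom with TMM scaling on the recovered reads, a replicate block and leaving out each library.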

Additional observations from a re-analysis of the deposited data

How the results depend on the processing

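The 10 contractile genes and the related lists had 0 calls under each alternative run. Over all tested genes limma called 0 and 262 had an unadjusted p under 0.05. The count of calls was also 0 with a pseudocount of 0.1, no filter, a filter of 5 FPKM (which leaves out Myh11), rescaling, quantile normalization and voom (137 at an unadjusted p under 0.05), and 1 to 13 with 1 library left out, where the lone library is taken to vary as the other group does. The cause of these differences was not tested. The median log2 fold change of the contractile genes, -0.041, ran from -0.20 without PAGln 1 to 0.12 without PAGln 2.

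Same-numbered libraries did not deviate together (correlation -0.284 over tested genes). With 2 libraries per group this cannot show whether the numbers mark a pairing. A replicate block gave 7 calls over all genes and none among the contractile or related genes. The crossed pairing, chosen after seeing the data, gave 0 calls and 899 genes at an unadjusted p under 0.05.

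Directions that turned were those of Tagln with rescaling to a common total (0.010) and of 7 genes with 1 library left out. The leave-one-out ranges were -0.31 to 0.29 for Tagln, -0.36 to 0.097 for Cnn1, -0.35 to 0.12 for Myl9, -0.28 to 0.14 for Lmod1, -0.17 to 0.34 for Myh11, -0.16 to 0.40 for Myocd and -0.19 to 0.035 for Srf. Cald1, Cnn2 and Smtn kept their direction under every alternative run. The planned edgeR and DESeq2 alternatives were not run, and voom was the count-based test used on the recovered reads. Depth limits Myh11 most, with 188 to 304 reads per library.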
